A study of Homo sapiens with 12 samples.

Results

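A set of 9 genes of the response to platinum damage was mapped in the chromatin of RT112 cells: ERCC1, ERCC2, ERCC4, BRCA1, BRCA2, ATM, ATR, FANCC and CHEK1. They were chosen by name as DNA repair genes tied to cisplatin response, with earlier results of these data known, and make up 9 of the 19626 protein-coding genes on chromosomes 1 to 22 and X. RT112 is a line from a human transitional cell carcinoma of the bladder, without ARID1A mutation per the study. The ARID1A protein belongs to SWI/SNF, a complex that remodels chromatin. In CUT&RUN an antibody guides a nuclease that releases the DNA next to the bound protein, and 12 samples made up 4 groups of 3 replicates. The groups were ARID1A with an Abcam antibody (ab182560), ARID1A with a Cell Signaling Technology antibody (CST, 12354), H3K4me3 (EpiCypher 13-0041), a histone mark of active promoters, and IgG (EpiCypher 13-0042). The labels give no drug and no genetic change for any group, so the data describe a single genotype and cannot show what loss of ARID1A does to these genes.

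Region lists of 3 groups were analysed, and IgG regions were not analysed here. Each list is the authors' merge over 3 replicates and holds positions without a signal, which leaves replicate error and sequencing depth unknown, and no difference below was put to a test. On chromosomes 1 to 22 and X there were 37501 Abcam regions with a median width of 1486 bp, 32932 CST regions with a median of 1442 bp and 9765 H3K4me3 regions with a median of 3046 bp. The label of the cells was checked through H3K4me3 at promoters of marker genes. It was present at 12 of 15 urothelial and epithelial genes, among them GATA3, FOXA1, PPARG and the keratin genes KRT7, KRT8 and KRT18, and at 0 of 12 genes of other cell types. KRT5, UPK2 and UPK3A were the urothelial genes without it. FAP and COL1A1, fibroblast genes, had ARID1A regions of both antibodies but no H3K4me3.

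Cisplatin joins bases within a strand and across strands of DNA. Adducts within a strand are removed by nucleotide excision repair, in which the ERCC2 helicase (XPD) of the TFIIH complex opens the DNA and the ERCC1-ERCC4 (XPF) nuclease cuts on the 5′ side. Crosslinks between strands are handled by the Fanconi anaemia pathway, to which FANCC belongs, and the resulting breaks by homologous recombination, which needs BRCA1 and BRCA2, while the kinases ATM, ATR and CHEK1 signal the damage. Mutations of ERCC2, ATM and FANCC are known in bladder cancer for their link to the response to cisplatin.

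A promoter was taken as 1 kb on either side of each transcription start site (TSS) of a protein-coding transcript in GENCODE. Regions of both ARID1A antibodies overlapped a promoter of 9 of 9 repair genes, against 38.2% of all protein-coding genes (95% exact binomial interval 37.6 to 38.9). H3K4me3 did so at 9 of 9, against 53.1% (52.4 to 53.8). All 3 lists met at the same TSS in 9 of 9, against 33.1% (32.5 to 33.8), and they met at the TSS of the Ensembl canonical transcript in 9 of 9, against 31.3%. Among the 10414 genes with H3K4me3 at a promoter, 63.8% had both antibodies. The genes were not chosen as independent draws, some are neighbours, and these intervals cover counting error only.

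The 9 genes had 74 annotated protein-coding TSSs, of which 66 carried all 3 lists. Most of these TSSs lay within 1 kb of the canonical TSS of their gene and met the same regions. They are therefore not separate promoters, and the share over all protein-coding TSSs was not computed. The other 8 belonged to ERCC1 (5), ATM (2) and FANCC (1). Transcripts of other types (retained introns, nonsense-mediated decay or no coding sequence) gave 70 further starts more than 1 kb from any of them. Starts nearer to a protein-coding TSS were left out, which removes those closest to the promoters with H3K4me3. None of those 70 had H3K4me3 within 1 kb, and 6 had an ARID1A region of at least 1 antibody. The matching shares over all genes were not computed, so neither count can be read as a trait of these genes.

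**Figure D1:**
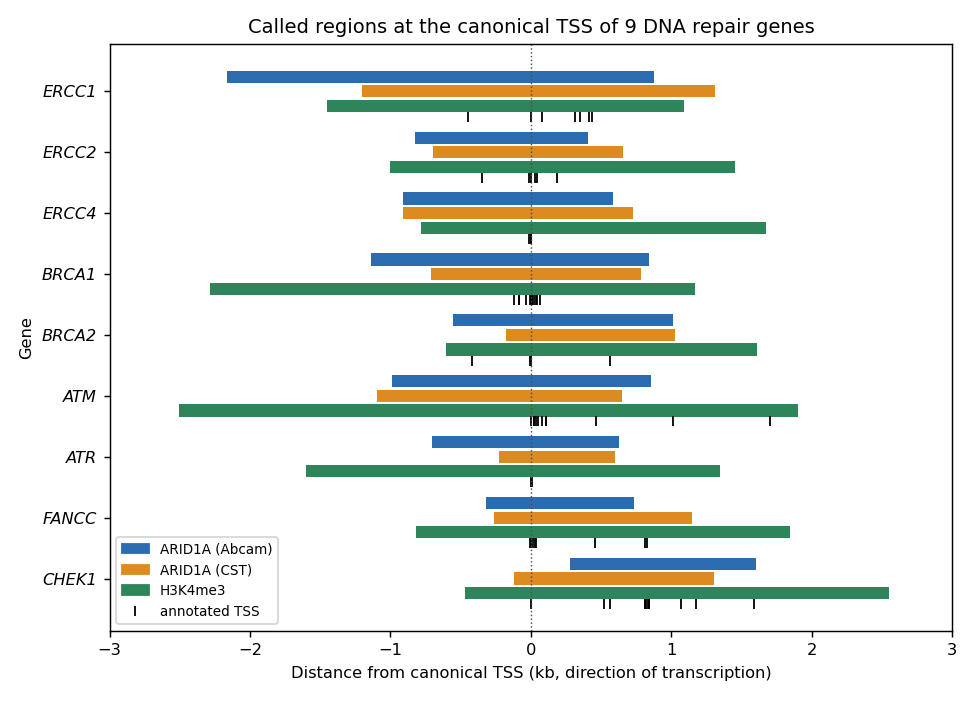
Regions of each list (bars) at the canonical TSS of the 9 genes, by distance from that TSS in kb along the direction of transcription, with ticks for annotated protein-coding TSSs. At 7 genes both ARID1A regions lay wholly inside the H3K4me3 region. Over the 6151 genes with all 3 lists there, the lower quartile of the share inside was 100% for each antibody. The ERCC1 Abcam region ran past the upstream edge of H3K4me3, and the CHEK1 Abcam region began 277 bp downstream of the canonical TSS.

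At the canonical TSS the ARID1A regions lay within the H3K4me3 region at most of the 9 genes, which is usual for such promoters. Over the 6151 genes with all 3 lists there, the lower quartile of the share inside H3K4me3 was 100% for each antibody. The median width over the 9 genes was 1493 bp for Abcam, 1420 bp for CST and 2660 bp for H3K4me3. Over all regions of each list the medians were 1486, 1442 and 3046 bp. Over the 6151 genes with all 3 lists at the canonical TSS the medians were 1851, 1653 and 3316 bp. In each list 7 of 9 repair genes were narrower than that median. The Abcam region was the wider of the ARID1A pair at 5 genes and the CST region at 4. The stretch covered by both antibodies was 74.3% of the stretch covered by either (the median over the 9 genes, against 73.2% over the 6151 genes), and ranged from 59.5% at CHEK1 to 90.9% at ERCC4. A width is where a caller drew its edges and does not measure how much ARID1A was bound.

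In 5 of these canonical promoters the same ETS word was found. Windows from 250 bases before to 50 after the TSS were searched on both strands for 11 groups of words, and CCGGAAG, the site of ETS family activators such as GABPA, was found at ERCC1, ERCC4, BRCA2, ATM and ATR. The word was in 14.0% of all 19625 canonical promoters and in 19.6% of the 6151 with all 3 lists. The stretches below are hg38 sequence, 5′ to 3′ on the strand of the gene, with 20 bases on each side and the word or its reverse complement CTTCCGG in capitals. They are shown because this was the only searched word found in most of the 9 genes.
ERCC1 (chr19:45423893-45423939, minus strand): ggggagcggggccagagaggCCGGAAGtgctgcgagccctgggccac
ERCC4 (chr16:13920132-13920178, plus strand): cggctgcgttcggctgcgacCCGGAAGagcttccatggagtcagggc
BRCA2 (chr13:32315400-32315446, plus strand): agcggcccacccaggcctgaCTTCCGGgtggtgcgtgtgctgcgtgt
ATM (chr11:108223033-108223079, plus strand): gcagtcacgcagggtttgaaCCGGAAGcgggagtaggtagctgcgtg
ATR (chr3:142578801-142578847, minus strand): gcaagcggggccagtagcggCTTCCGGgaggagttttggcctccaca
ATR (chr3:142578752-142578798, minus strand): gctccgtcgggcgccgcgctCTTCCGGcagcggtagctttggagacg
At ERCC1 and ERCC4 the word began 2 bases before the annotated TSS and at ATM 14 bases before it. It began 88 bases before the TSS at BRCA2, and at ATR the word occurred at 45 and at 94 bases before it. ATR thus held a pair of copies and the other 4 genes a single one.

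The other words were spread among fewer of the 9 canonical windows. The SP1 word GGGCGG was found at ERCC2, ATR and FANCC, 3 of 9, although 61.6% of all canonical promoters and 80.0% of those with all 3 lists held it. CCAAT was found at ERCC2, BRCA1 and ATM (36.0% of all), and TTTGAA, known as the CHR element of cell cycle genes, at ERCC1, ATM and FANCC (11.5%). An E-box, CACGTG, was found at BRCA2 and FANCC (8.74%), and an E2F word, TTTGGCGC or TTTCCCGC, in the canonical window of FANCC only (3.08%). Windows of other TSSs differed: the 6 CHEK1 TSSs 811 to 844 bp downstream of the canonical one each held an E2F word and 1 or 2 SP1 words, and the 4 ERCC1 TSSs 312 to 432 bp downstream each held 2 SP1 words. None of the 9 canonical windows held the AP-1 word TGANTCA (5.45% of all), GGAATG of TEAD factors (11.3%), GCGCATGCG of NRF1 (2.71%), TGACGTCA of CREB (2.73%) or the TATA box TATAAA (9.67%). The ETS and TEAD words share GGAA, followed by G in the former and by T in the latter, so the same GGAA cannot belong to both. A match is a run of letters and not a bound site, and a window without a match says nothing of the factor.

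Among the excision repair genes, ERCC1 (ENSG00000012061, chr19:45407334-45478828, minus strand) had the most divided promoter pattern. ERCC1 is the noncatalytic partner that places the XPF nuclease on damaged DNA. Its gene spans 71.5 kb with 12 protein-coding TSSs, and 7 of them lay within 1 kb of the canonical TSS at position 45423917. At those 7 all 3 lists overlapped: Abcam with 3035 bp (chr19:45423044-45426078), CST with 2515 bp (chr19:45422604-45425118) and H3K4me3 with 2548 bp (chr19:45422825-45425372). The Abcam region was wider than 88.0% and the H3K4me3 region wider than 19.0% of those of the 6151 genes. Abcam reached 2161 bp upstream of the TSS, so that 76.7% of it lay inside the H3K4me3 region, compared with 91.2% of the CST region.

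**Figure D2:**
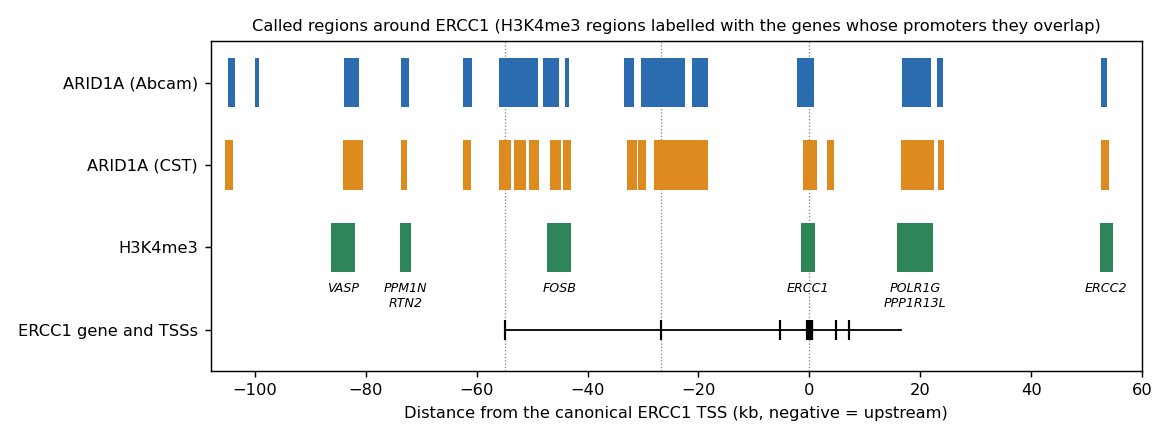
Regions of the 3 lists over ERCC1 and 50 kb on each side, by distance from the canonical ERCC1 TSS in kb, upstream to the left, with dotted lines at the canonical TSS and at the upstream TSSs 26.8 and 54.9 kb away. ARID1A regions of both antibodies cover both of those upstream TSSs and H3K4me3 covers neither, its only region between them belonging to FOSB.

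The most distant upstream TSSs of ERCC1, 26.8 and 54.9 kb away, carried wide ARID1A regions and no H3K4me3. The TSS at 45450725, 26.8 kb upstream of the canonical one, lay in an Abcam region of 7885 bp (chr19:45446359-45454243) and a CST region of 9685 bp (chr19:45442209-45451893). The most upstream TSS, at 45478828 and 54.9 kb away, lay in an Abcam region of 7082 bp (chr19:45472843-45479924) and a CST region of 2195 bp (chr19:45477698-45479892). A gene with both antibodies and no H3K4me3 at one TSS and H3K4me3 at another was uncommon: it was seen in 1 of the 9 repair genes, ERCC1, and in 2.34% of all genes (459). Over all genes 3142 TSSs of 1322 genes had both antibodies and no H3K4me3 within 1 kb. Ranked by the smaller of the antibodies' widths, 45450725 stood first of these 3142, where the median was 1383 bp, and 45478828 was wider than 85.2%. GENCODE gives 1 transcript at each of these upstream TSSs, and RefSeq places an ERCC1 start 822 bp from the former, which also had both antibodies and no H3K4me3. The lists cannot show whether either TSS was used in these cells.

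The antibodies drew these upstream regions differently. The CST region of 9685 bp ran across 2 Abcam regions, the one of 7885 bp and another of 2875 bp (chr19:45442186-45445060). The Abcam region of 7082 bp in turn ran across 3 CST regions of 1791, 2209 and 2195 bp. Between the H3K4me3 region of the canonical TSS and that of FOSB, 41536 bp in all (chr19:45425373-45466908), Abcam regions covered 31.9% and CST regions 31.1%, while H3K4me3 is missing there because the stretch was cut between its regions.

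The internal TSSs beyond the canonical group and the upstream TSS at 45429210 were sparsely marked. At 45419186, 4731 bp downstream of the canonical TSS, a CST region of 1184 bp (chr19:45419476-45420659) in an intron had no Abcam partner. The TSS 7058 bp downstream, at 45416859, and the one at 45429210, 5293 bp upstream, had no region of any list within 1 kb. Of the 12 ERCC1 TSSs 7 thus had all 3 lists, 2 both antibodies alone, 1 CST alone and 2 nothing.

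The sequences of the canonical and the most upstream ERCC1 TSS are printed because the former had all 3 lists and the latter both antibodies alone. Each runs from 250 bases before to 50 after the TSS, hg38, minus strand, with words of ETS, SP1, CCAAT, E2F and AP-1 words in capitals. They lie at chr19:45423868-45424167 and chr19:45478779-45479078.
canonical ERCC1 TSS: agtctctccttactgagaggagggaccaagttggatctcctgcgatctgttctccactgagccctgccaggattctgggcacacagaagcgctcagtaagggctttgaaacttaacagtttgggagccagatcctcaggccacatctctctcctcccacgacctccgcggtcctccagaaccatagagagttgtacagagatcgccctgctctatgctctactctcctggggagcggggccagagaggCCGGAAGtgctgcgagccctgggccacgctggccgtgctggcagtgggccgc
most upstream ERCC1 TSS: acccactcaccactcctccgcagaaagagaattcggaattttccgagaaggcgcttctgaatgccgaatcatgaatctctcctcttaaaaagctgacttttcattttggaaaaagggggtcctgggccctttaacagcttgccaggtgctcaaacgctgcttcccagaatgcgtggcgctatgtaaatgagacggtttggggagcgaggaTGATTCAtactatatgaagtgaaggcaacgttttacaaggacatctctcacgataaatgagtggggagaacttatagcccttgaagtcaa
The canonical window held the ETS word and the most upstream one an AP-1 word, and the window of the TSS at 45450725 is not described here. The ratio of observed to expected CpG was 0.44 in the canonical window and 0.74 in the most upstream one, where the median of all canonical promoters was 0.78. The canonical window thus exceeded 25.8% of canonical promoters and the most upstream one 44.3%. Within the canonical group the CpG ratio rose to 0.96 at the TSS 351 bp downstream, inside the same regions.

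Every other H3K4me3 region around ERCC1 lay at promoters of neighbouring or overlapping genes. FOSB, which encodes a partner of JUN in AP-1, is read from the other strand within the long ERCC1 transcript, and had an H3K4me3 region of 4255 bp with Abcam regions of 824 and 3019 bp. POLR1G, an RNA polymerase I subunit gene, and PPP1R13L, which encodes the p53 inhibitor iASPP, share regions of 5157 bp (Abcam), 6020 bp (CST) and 6532 bp (H3K4me3) at the 3′ end of ERCC1, and the latter 2 run into the gene. RTN2 and PPM1N share narrower ones (1558, 1088 and 1960 bp), and VASP, an actin regulator, had 2771, 3668 and 4469 bp. ERCC2 lies in the same surroundings, so the regions at and between both repair genes were counted for each.

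Over the gene body plus 50 kb on each side, ERCC1 held 15 Abcam, 17 CST and 6 H3K4me3 regions, and 14 of the Abcam regions overlapped a CST region (shared regions). That is 8.16 shared regions per 100 kb, more than at 99.3% of all genes. Of these, 4 lay in the gene body at no promoter of ERCC1 while 11 in all lay away from its promoters. The 11 include regions at promoters of other genes, namely ERCC2, POLR1G with PPP1R13L, FOSB, RTN2 with PPM1N, and VASP. The FOSB regions are among the 4 in the gene body.

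ERCC2 and ERCC4, the other excision repair genes, had compact promoters. At ERCC2 (ENSG00000104884, chr19:45349837-45370918, minus strand) all 6 TSSs had all 3 lists, with widths of 1237 bp for Abcam (chr19:45370165-45371401), 1357 bp for CST and 2456 bp for H3K4me3. Its body of 21.1 kb held no other ARID1A region. In the 50 kb flanks an Abcam region of 851 bp without CST lay at the promoter of KLC3. CST regions without Abcam measured 734 bp, at no promoter, and 1184 bp, at an internal ERCC1 TSS. The remaining shared regions were those near POLR1G.

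At ERCC4 (ENSG00000175595, chr16:13920138-13952348, plus strand), which encodes the catalytic XPF subunit, all 3 TSSs had the 3 lists and the antibodies gave nearly the same edges. Abcam covered 1493 bp (chr16:13919246-13920738) and CST 1643 bp, and their agreement of 90.9% was higher than at 89.6% of the 6151 genes. They began before the H3K4me3 region of 2459 bp, with 91.5% and 92.0% of their length inside it. A shared region of 2617 bp (Abcam, chr16:13956748-13959364) and 2495 bp (CST) lay past the 3′ end of the gene, 37.9 kb downstream of the TSS, with no H3K4me3 and no promoter. A CST region of 1059 bp in an intron had no Abcam partner.

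The shared stretch beyond ERCC4 held 4 AP-1 words TGANTCA in a single region, 1.6 per kb, more than 81.2% of the 21993 shared stretches away from promoters. They are printed with 15 bases on each side from the plus strand of hg38, the word in capitals.
ERCC4 downstream (chr16:13957577-13957613, plus strand): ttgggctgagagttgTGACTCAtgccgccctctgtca
ERCC4 downstream (chr16:13957925-13957961, plus strand): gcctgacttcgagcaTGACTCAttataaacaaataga
ERCC4 downstream (chr16:13958001-13958037, plus strand): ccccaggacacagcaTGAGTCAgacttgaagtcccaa
ERCC4 downstream (chr16:13958520-13958556, plus strand): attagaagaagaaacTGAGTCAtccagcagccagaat
All 4 were of the form TGACTCA or TGAGTCA, which are reverse complements of each other.

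**Figure D3:**
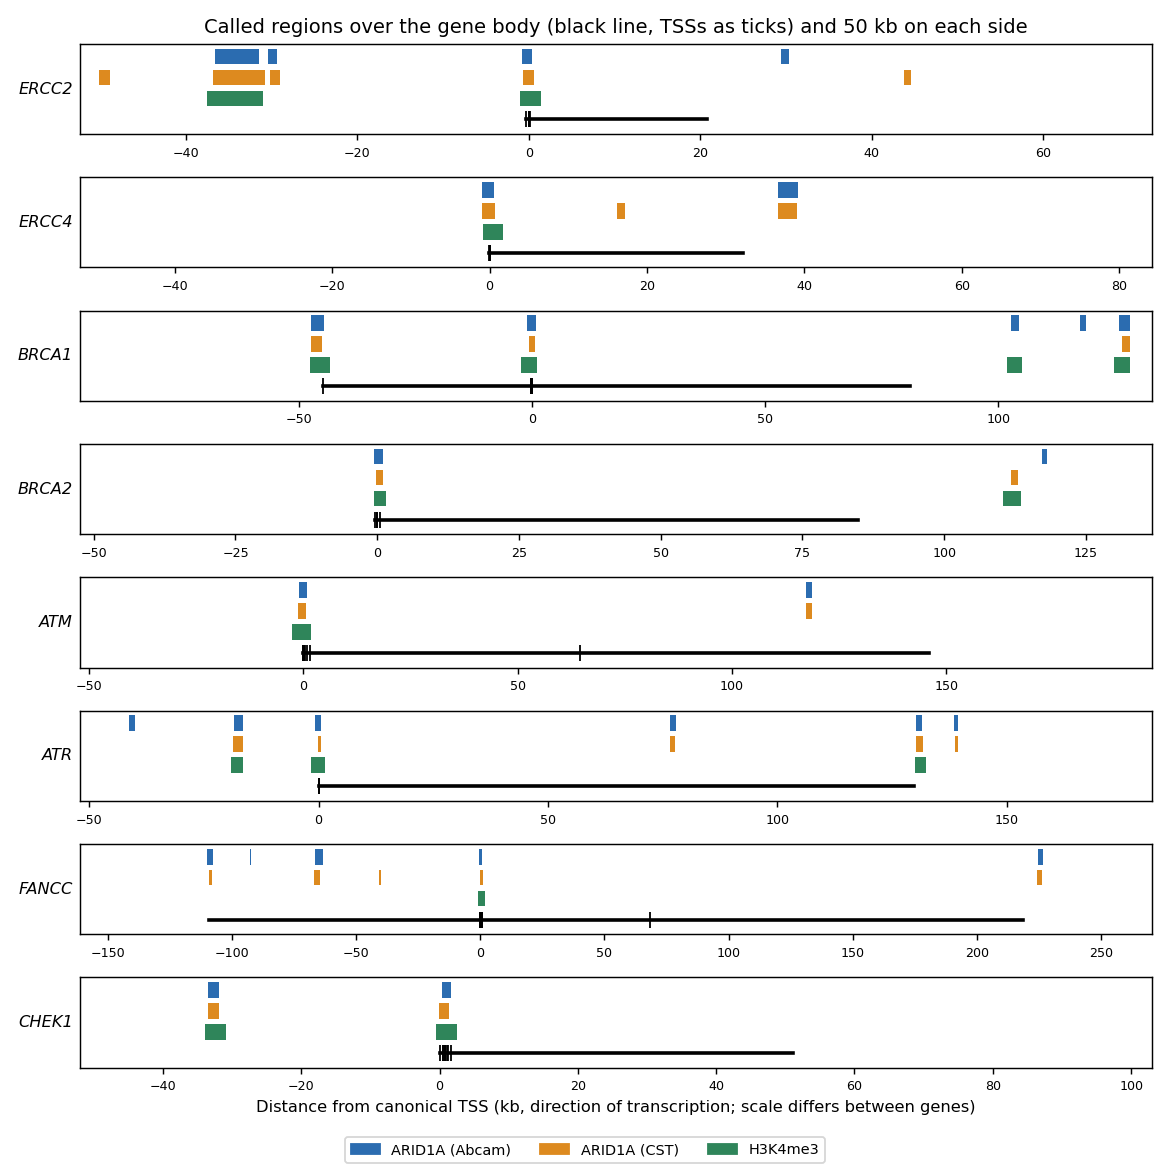
Regions of the 3 lists over the gene body (black line, with ticks at protein-coding TSSs) and 50 kb on each side for the 8 genes other than ERCC1, by distance from the canonical TSS in kb on a scale of its own for each gene. Each gene has a group of all 3 lists at its promoter, and the regions far from promoters at ERCC4, ATM, ATR and FANCC have ARID1A without H3K4me3.

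Of the recombination genes, BRCA1 (ENSG00000012048, chr17:43044295-43170245, minus strand) had all 3 lists at each of its 14 TSSs. BRCA1 is a ubiquitin ligase subunit that favours resection of broken ends, and 13 of the TSSs lay within 1 kb of the canonical one. The widths there were 1983 bp for Abcam (chr17:43124524-43126506), 1490 bp for CST and 3450 bp for H3K4me3. This promoter is shared with the noncoding gene NBR2, whose start lies 68 bp from a BRCA1 TSS on the other strand. The last TSS lay 44.9 kb upstream and 236 bp from that of NBR1, an autophagy receptor gene on the other strand, with regions of 2822 bp (Abcam), 2528 bp (CST) and 4173 bp (H3K4me3). The lists cannot assign those regions to BRCA1 or NBR1. In the flanks RPL27 had all 3 lists, VAT1 had H3K4me3 with Abcam alone, and IFI35 had Abcam alone (1269 bp).

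BRCA2 (ENSG00000139618, chr13:32315086-32400268, plus strand), which acts in the strand exchange step of recombination, had all 3 lists at its 4 TSSs. The widths were 1565 bp for Abcam (chr13:32314954-32316518), 1204 bp for CST and 2210 bp for H3K4me3, and the last was wider than 8.4% of those of the 6151 genes. ZAR1L starts 142 bp away on the other strand and lies under the same regions. No other region was found in the 85.2 kb of the gene. It had the lowest density of the 9 genes, 0.54 shared regions per 100 kb, since the flanks held a CST region at N4BP2L1 (1188 bp, with H3K4me3) and an Abcam region (889 bp) that did not coincide.

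Of the damage kinases, ATM (ENSG00000149311, chr11:108223044-108369102, plus strand) had the widest H3K4me3 region of the 9 genes at the canonical TSS. ATM responds to double-strand breaks. The H3K4me3 region of 4406 bp (chr11:108220564-108224969) was wider than 81.3% of those of the 6151 genes, and the ARID1A regions measured 1849 bp (Abcam) and 1751 bp (CST). NPAT, a regulator of histone genes, starts 429 bp away on the other strand, so the regions lie over both promoters. Of the 12 ATM TSSs 10 had all 3 lists, the one 1701 bp downstream lacked CST, and an internal one 64.5 kb downstream had no region. A shared region without H3K4me3 lay in an intron about 118 kb downstream, Abcam with 1229 bp (chr11:108340403-108341631) and CST with 1327 bp, and held a single AP-1 word.
ATM intron (chr11:108341133-108341169, plus strand): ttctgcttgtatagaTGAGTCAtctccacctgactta
It is printed as the ERCC4 words were, plus strand, and was the only shared region of the gene body away from the promoter.

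ATR (ENSG00000175054, chr3:142449007-142578733, minus strand), the kinase of stalled replication forks, had the narrowest CST region of the 9 genes at the canonical TSS. Abcam covered 1326 bp (chr3:142578109-142579434) and CST 826 bp at its 2 TSSs, within an H3K4me3 region of 2949 bp, and the CST region was wider than 4.0% of those of the 6151 genes. An intron held a shared region of 1310 bp (Abcam, chr3:142500785-142502094) and 1230 bp (CST) without H3K4me3, 77.3 kb downstream. In the flanks XRN1 and PLS1 had all 3 lists at their promoters. Past the 3′ end of ATR lay a shared region of 989 bp (Abcam) and 575 bp (CST), at no promoter and without H3K4me3. An Abcam region of 1229 bp in the upstream flank had no CST partner. The count came to 5 shared regions, or 2.18 per 100 kb.

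At CHEK1 (ENSG00000149554, chr11:125625163-125676255, plus strand), the kinase that ATR activates, the regions were placed downstream of the canonical TSS. The Abcam region of 1328 bp (chr11:125625440-125626767) began 277 bp and ended 1604 bp downstream of it, whereas the CST region of 1420 bp (chr11:125625045-125626464) and the H3K4me3 region of 3019 bp covered it. All 12 CHEK1 TSSs had the 3 lists within 1 kb, and 6 of them lay 811 to 844 bp downstream, in the middle of the regions. RefSeq gives 3 starts, 1061, 1066 and 1193 bp downstream, and none at the canonical TSS. GC content was 43.3% around the canonical TSS, higher than in 8.2% of canonical promoters, and 61.3 to 62.0% around the 6 TSSs further down. A noncoding gene starts 61 bp from one of these on the other strand.

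FANCC (ENSG00000158169, chr9:95099054-95426796, minus strand), part of the Fanconi core complex that adds ubiquitin to FANCD2 and FANCI, is the longest of the 9 genes at 327.7 kb. The promoter regions measured 1053 bp for Abcam (chr9:95316978-95318030), 1411 bp for CST and 2660 bp for H3K4me3, and the Abcam region was wider than 5.1% of those of the 6151 genes. They covered 8 of the 9 TSSs, and the one 68.4 kb downstream had no region. Other shared regions lay away from the promoter without H3K4me3, each wider than the promoter region in Abcam but not each in CST. One 64.9 kb upstream measured 3145 bp (Abcam, chr9:95381027-95384171) and 2331 bp (CST), in an intron of longer FANCC transcripts. Another of 2233 bp (Abcam) and 1206 bp (CST) lay over the starts of noncoding FANCC transcripts at 95426742 and 95426796. The last, 1918 bp (Abcam) and 1876 bp (CST), lay beyond the 3′ end.

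Over the gene bodies and flanks of all 9 genes, counting each region once, there were 40 Abcam, 40 CST and 20 H3K4me3 regions. Of the Abcam regions 33 were shared with CST and 7 were not, and 5 CST regions had no Abcam partner. Each of the 20 H3K4me3 regions overlapped ARID1A of at least 1 antibody. Of the 33 shared regions 21 lay at a protein-coding promoter and 19 overlapped H3K4me3. None of the 12 at no promoter did. The matching shares over all regions of each list were not computed, and each window holds a promoter by design. Stretches common to both antibodies, of at least 300 bases, numbered 21 at promoters and 15 away from them around the 9 genes. Over all chromosomes used they numbered 7208 and 21993.

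**Figure D4:**
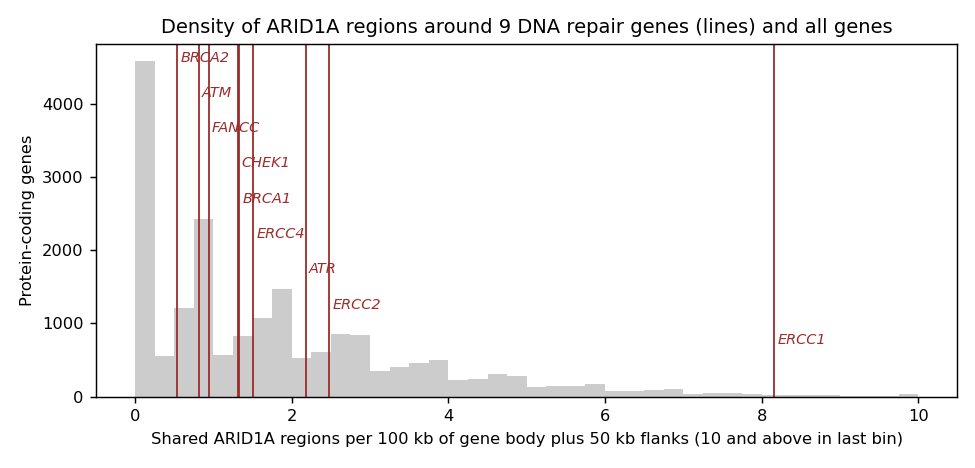
Shared ARID1A regions per 100 kb of gene body plus 50 kb flanks, for all 19626 protein-coding genes (bars, number of genes) and the 9 repair genes (red lines). ERCC1 stands at 8.16 and the other 8 genes lie between 0.54 and 2.48, around the median of 1.4.

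The density of shared regions set ERCC1 apart from the other 8 genes. The ERCC1 value includes regions at promoters of neighbouring genes such as FOSB and VASP. The median of the 9 was 1.33 per 100 kb, against 1.4 over all genes, with quartiles of 0.43 and 2.75, and 1.84 over the genes with H3K4me3 at a promoter. ERCC2 (2.48), ATR (2.18) and ERCC4 (1.51) were above the median of all genes and BRCA1 (1.33), CHEK1 (1.32), FANCC (0.94), ATM (0.81) and BRCA2 (0.54) below it. Counts of 1 to 5 regions lie behind these 8 values, so neighbours in this order often differ by a single region. The flanks are the same length for a short and a long gene, and a long gene such as FANCC is therefore measured mostly over its own body.

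Sequence composition differed between shared regions at and away from promoters, here taken as the stretch common to both antibodies. In the central 300 bases the AP-1 word was present in 37.1% of the 21993 stretches away from promoters and in 9.39% of the 7208 at promoters. Of the 15 stretches away from promoters around the 9 genes, 6 held it there and 9 held it anywhere. Of the 21 at promoters 2 held it centrally. The densest was the one 32.6 kb upstream of the canonical ERCC1 TSS (Abcam 1783 bp, CST 1804 bp), with 3 words or 2.41 per kb, more than in 93.8% of stretches of its class. The 3 words are printed with 15 bases on each side, plus strand, hg38.
ERCC1 upstream (chr19:45455879-45455915, plus strand): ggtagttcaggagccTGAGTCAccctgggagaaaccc
ERCC1 upstream (chr19:45455966-45456002, plus strand): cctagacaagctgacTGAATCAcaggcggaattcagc
ERCC1 upstream (chr19:45456095-45456131, plus strand): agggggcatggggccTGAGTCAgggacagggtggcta
The outer words were TGAGTCA and the inner one read TGAATCA. The FANCC stretch over the noncoding starts held a pair of AP-1 words, and the ATR intron a single one.

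**Figure D5:**
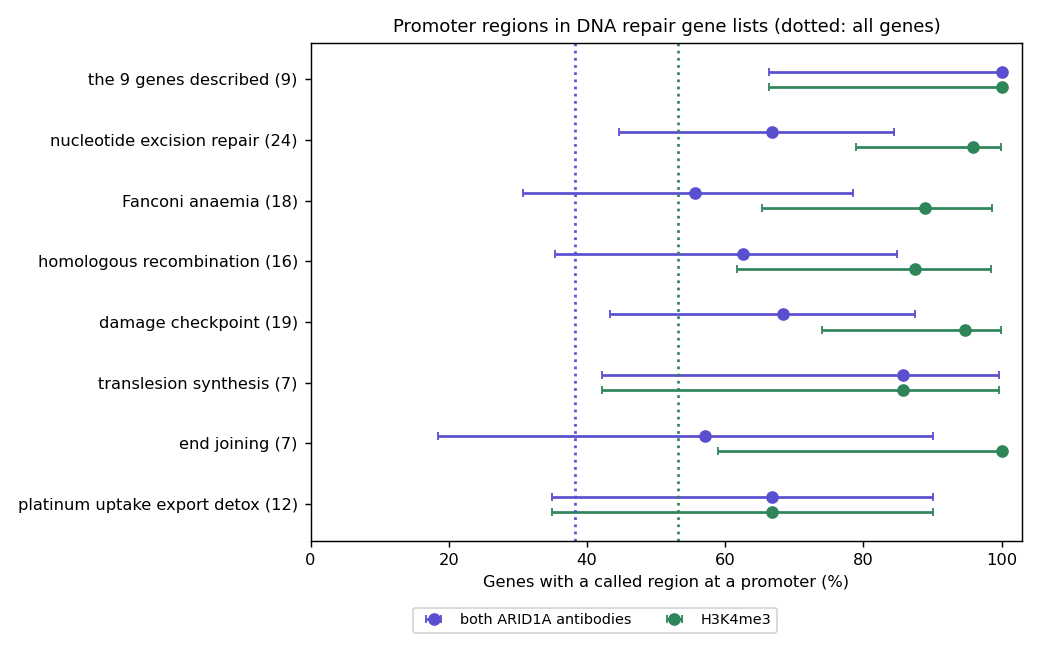
Share of genes (%) in each list with both ARID1A antibodies and with H3K4me3 at a promoter, with 95% exact binomial intervals (counting error only) and the number of genes in brackets, and dotted lines for all protein-coding genes at 38.2% and 53.1%. The 9 genes described stand at 100% for both, and the other 7 lists drawn lie between 55.6% and 85.7% for both antibodies. Most genes in these lists had H3K4me3, and among all genes with H3K4me3 at a promoter 63.8% had both antibodies.

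Other genes of DNA repair and platinum handling were counted in the same way, and not each list is described here. Of 109 such genes, 73 (67.0%) had both antibodies at a promoter and 98 had H3K4me3, 70 had all 3 lists at 1 TSS, 15 had 1 antibody and 21 had neither. Of the 98 with H3K4me3, 70 had both antibodies, beside the 63.8% of all genes with H3K4me3. In nucleotide excision repair 16 of 24 had both antibodies, with the widest pair at DDB2 (3209 and 2830 bp), the damage sensor, followed by RAD23B, XPA and LIG1. DDB1, the partner of DDB2, had none, as did GTF2H2, GTF2H3 and MNAT1 of TFIIH. GTF2H2 has near-identical copies in the genome, where reads that map to several places were removed, so its lack of regions is uncertain.

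In the Fanconi anaemia list 10 of 18 genes had both antibodies, led by the nuclease gene MUS81 (5097 and 4383 bp) and by BRIP1, FANCG and FANCE. FANCD2 and FANCI, the pair that the core complex modifies, had none, as did EME1, the partner of MUS81, and FAN1. In homologous recombination 10 of 16 had both, with RAD54L, BARD1, the partner of BRCA1, RAD51B and RBBP8 widest and DNA2, RAD51D and XRCC2 without ARID1A. In the checkpoint list 13 of 19 had both, led by RAD9A, CHEK2, CDC25C and TP53BP1. ATRIP, the partner of ATR, and TOPBP1, its activator, had none, nor did RNF8.

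In translesion synthesis 6 of 7 had both, and POLI had them without H3K4me3, next to POLK, RAD18 and REV1, while MAD2L2 had none. In end joining 4 of 7 had both (PRKDC, DCLRE1C, XRCC6 and NHEJ1), and LIG4 and XRCC5 had none. Of 12 genes of platinum uptake, export and detoxification 8 had both antibodies. The export pump gene ABCC2 had regions of 6740 bp (Abcam) and 6043 bp (CST) without H3K4me3, and the metallothionein gene MT2A had 4784, 5297 and 3041 bp in the 3 lists. GSTP1 and GCLC of glutathione metabolism followed, while MT1X and SLC22A2 had no ARID1A region.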

How the data were processed

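CUT&RUN was done in 12 samples of RT112 cells. The authors trimmed reads with cutadapt, aligned them to GRCh38 (hg38) and E. coli by bwa-mem2, and discarded duplicates (Picard) and non-unique reads (samtools). They scaled replicates by E. coli reads and called peaks with SEACR. Per the methods only a top share of the peaks was kept, and the peaks of 3 replicates were merged with bedtools. In the submitters' processing notes SEACR, bedtools, deepTools, Picard, cutadapt and bcl2fastq are listed, and versions are not given in the sources used here. The methods name SEACR's relaxed mode and the lists are named stringent, so the threshold is uncertain and a region missing from a list may lie just under it. The labels and the methods differ on the amount of spike-in, which was not used here. Merging keeps a region that only 1 replicate may have carried, and the sources used here do not say whether separate cultures were used. The deposited lists give the start and end position of each region in other units than a signal (bases of hg38), without a score, so nothing was tested and depth is unknown.

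Positions are printed from 1. Chromosomes 1 to 22 and X were used, leaving out 152 Abcam, 159 CST and 14 H3K4me3 regions. Regions were joined to TSSs of protein-coding transcripts in GENCODE 44 (python 3.11.15, pandas 2.3.3, numpy 2.4.6) when at least 1 bp lay within 1 kb, and to gene bodies with 50 kb flanks. A shared region is an Abcam region that overlaps a CST region by at least 1 bp. Shares of genes carry 95% exact (Clopper-Pearson) intervals (scipy 1.17.1). Sequence was read from hg38. RefSeq starts (GRCh38.p14) were found for 9 of 9 genes, 16 in all. The joining code was tested on simulated data.

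The 9 genes, the lists and the words were chosen with earlier results of these data known. The rule for other named genes took, of each list, up to 4 with the widest regions of both antibodies (by the smaller width) and the first 4 by alphabet among those without ARID1A, genes starting within 1 kb of a TSS of the 9, genes with a promoter under a region around ERCC1, and the 3 widest shared regions around each gene. KLC3, RPL27, VAT1, IFI35, N4BP2L1, XRN1 and PLS1, which explain regions of the flanks, were named after their values were seen. So were regions of a single antibody and the shared region past the 3′ end of ATR. A few named items and 1 list were left out of the text. Alternatives were promoter windows of 500 bp or 3 kb, the canonical or most upstream TSS, leaving out regions narrower than the median of the list, an overlap of 200 bp, region midpoints, joining of regions under 500 bp apart, and flanks of 10 and 100 kb.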

Additional observations from a re-analysis of the deposited data

How the results depend on the processing

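Of 37 alternatives, 31 left the counts within 1.5 times the reported values. The 6 that moved all left out the regions narrower than their list's median, which removes regions by construction. Both antibodies then remained at a promoter of 4 of the 9 genes (21.4% of all genes), H3K4me3 at 2 (29.0%) and all 3 lists at 1 TSS at 2 (13.7%), which were BRCA1 and ATM. ERCC1 then had 9 TSSs with both antibodies and no H3K4me3, since its H3K4me3 region of 2548 bp is under the median. Shared regions around the 9 genes fell to 19 and other repair genes with both antibodies to 31. With the most upstream TSS only, H3K4me3 was counted at 8 of the 9 genes (49.5% of all genes). All 3 lists were also counted at 8 of the 9, ERCC1 being the one lost in both counts. The share of all genes with all 3 lists was then below the 33.1% of the main setting. No paired analysis was possible because the lists are merged over replicates and carry no replicate numbers, and for the same reason no replicate could be left out. Depth and signal over background are unknown, so a missing region was not detectable under the authors' threshold and is not shown to be absent.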

Other observations

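After ERCC1, the genes with the widest regions of both antibodies at a TSS without H3K4me3 were PLA2G6, a phospholipase gene (smaller width 6186 bp), and ABCC2 (6043 bp), the export pump gene. Further down the same order came the keratin gene KRT15 (5678 bp), the semaphorin gene SEMA3C (5587 bp) and the lamin gene LMNA (5523 bp). These genes were named after their values were seen, and no test was made of them.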
